A study of Mus musculus with 9 samples.

Results

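Hand2 encodes a basic helix-loop-helix transcription factor. H3K27ac, the acetylation of histone H3 at lysine 27 that marks active promoters and enhancers, was compared over the gene and its surroundings in mouse forelimb buds of 3 genotypes. The members are every peak of the 3 deposited peak lists that lies in a window of 1 Mb on chromosome 8 (mm10), from 821 kb before to 179 kb after the start of Hand2 (ENSMUSG00000038193.4, chr8:57320983-57324633, plus strand). They number 72 of the 91822 peaks in the series: 13 in the wild-type (WT) list, 7 in the Shh-/- list and 52 in the Shh-/-;Gli3-/- list. A peak marks acetylated chromatin, and whether it acts as an enhancer of Hand2 was not measured.

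Buds came from embryos at E10.5 (33 to 34 somites). The labels give the strain background as mixed, while the study's methods place both null alleles on Swiss Webster. Each MicroChIP, a chromatin immunoprecipitation for small cell numbers, used 1 pair of buds. WT embryos were Shh+/+;Gli3+/+ littermates, Shh-/- embryos carried the null allele Shh tm1amc, and Shh-/-;Gli3-/- embryos were null for both genes, with the Xt-J allele of Gli3. All 3 groups were assayed with 2 H3K27ac libraries and 1 input each. Both alleles are germline nulls, so every cell of the mutants lacked the gene from the start of development. Whole buds were used, so more acetylation per cell and more cells that carry it cannot be told apart. Each genotype has a single list with no value per replicate, which gives no replicate error and allows no test, and both mutants are set against the one WT list.

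In the limb bud, HAND2 is made in posterior mesenchyme, where it sets anterior-posterior polarity and helps to switch on Shh. GLI3, processed to a repressor in cells that receive no SHH, restricts posterior genes from the anterior bud, and HAND2 in turn restrains Gli3. SHH blocks the formation of the GLI3 repressor, so that Shh-/- buds hold repressor throughout, while Shh-/-;Gli3-/- buds lack SHH and most GLI activity of either kind.

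The lists differ before Hand2 is considered. They hold 25096 WT, 32085 Shh-/- and 34641 Shh-/-;Gli3-/- peaks over 10.4, 12.9 and 17.1 Mb, and 60.8%, 72.4% and 83.4% of them have a false discovery rate (FDR) below 0.05. Of the promoters of limb mesenchyme markers (Prrx1, Tbx5, Twist1), 3 of 3 held a peak in every list. Ectoderm, blood and endothelium markers held 0 of 3 each in every list, and of 2 muscle precursor markers only Lbx1 held one, in the Shh-/-;Gli3-/- list.

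Sequences from the locus are given first, from the plus strand of GRCm38 (mm10). The first is the RefSeq promoter of Hand2, the 250 bases before its start, in which capitals mark CCAAT and GGGCGG on either strand.
Hand2 promoter, chr8:57320733-57320982: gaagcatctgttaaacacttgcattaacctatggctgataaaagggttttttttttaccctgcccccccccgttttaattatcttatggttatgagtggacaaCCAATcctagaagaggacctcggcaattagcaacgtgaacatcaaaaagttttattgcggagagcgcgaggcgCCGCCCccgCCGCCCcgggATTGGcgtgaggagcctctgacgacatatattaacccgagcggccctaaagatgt
The 3 windows of 200 bases that follow are centred on the largest statistic of the distal Shh-/-;Gli3-/- peaks with the highest log2 folds, chosen by that rule; they hold no match to the GLI motif GACCACCCA, and so no capitals.
405 kb upstream, chr8:56915725-56915924: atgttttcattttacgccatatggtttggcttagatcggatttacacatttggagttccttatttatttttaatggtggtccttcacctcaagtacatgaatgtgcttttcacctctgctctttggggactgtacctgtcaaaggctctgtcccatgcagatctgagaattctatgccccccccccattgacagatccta
488 kb upstream, chr8:56832425-56832624: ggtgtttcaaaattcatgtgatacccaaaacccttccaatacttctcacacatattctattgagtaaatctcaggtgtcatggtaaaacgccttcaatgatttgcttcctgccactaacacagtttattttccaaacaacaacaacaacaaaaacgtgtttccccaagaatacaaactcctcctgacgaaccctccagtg
362 kb upstream, chr8:56958425-56958624: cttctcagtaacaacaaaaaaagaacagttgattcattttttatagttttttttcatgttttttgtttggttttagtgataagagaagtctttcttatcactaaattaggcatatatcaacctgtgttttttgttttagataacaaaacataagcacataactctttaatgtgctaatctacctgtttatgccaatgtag
The last window, of 300 bases, is the only one of the 72 member windows with an exact GLI match, in capitals.
338 kb upstream, chr8:56982975-56983274: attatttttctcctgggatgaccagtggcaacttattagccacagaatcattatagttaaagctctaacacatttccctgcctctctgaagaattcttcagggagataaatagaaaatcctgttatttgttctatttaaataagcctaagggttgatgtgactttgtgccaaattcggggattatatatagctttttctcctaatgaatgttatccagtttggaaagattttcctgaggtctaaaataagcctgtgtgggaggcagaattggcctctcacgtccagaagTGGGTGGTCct

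The first exon of Hand2 held a peak in all 3 genotypes, and that of Shh-/-;Gli3-/- alone covered the start itself. Positions come in steps of 50 bp, and the Shh-/- and Shh-/-;Gli3-/- peaks began on adjacent steps, so that difference is at the limit of resolution. The WT peak began 217 bp after the start and spanned chr8:57321200-57322299 (1100 bp, log2 fold 4.24 over its own input) and ranked in the top 8.57% of its list. The Shh-/- peak began 17 bp after the start and spanned chr8:57321000-57322299 (1300 bp, log2 fold 4.19, top 11.1%), with the same end as in WT and a width 1.18 times that of WT. The Shh-/-;Gli3-/- peak spanned chr8:57320950-57324399 (3450 bp, log2 fold 4.82, top 5.31%), 3.14 times the width in WT. Folds are relative to each genotype's own input and were not compared between lists.

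The wide Shh-/-;Gli3-/- peak ran from 33 bp before the start of Hand2 to 3416 bp after it, over the first exon, the intron and most of the second exon. It took in 3 separate WT peaks that cover 2550 bp, or 73.9% of it, and the Shh-/- peak, which covers 37.7%. Peaks covered 69.8% of the 3651 bp of the Hand2 gene in WT, 35.6% in Shh-/- and 94.5% in Shh-/-;Gli3-/-. Among all Shh-/-;Gli3-/- peaks, 1.44% overlap at least 3 WT peaks. Among the 1978 promoter peaks of at least 1000 bp in WT, 1.52% have a Shh-/-;Gli3-/- peak at least 3 times as wide, and the median width ratio is 1.13 (quartiles 1 and 1.35). Both thresholds of 3 were set after the values at Hand2 were seen. The antisense gene Hand2os1 overlaps Hand2, and ChIP signal cannot be assigned to either of them.

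**Figure D1:**
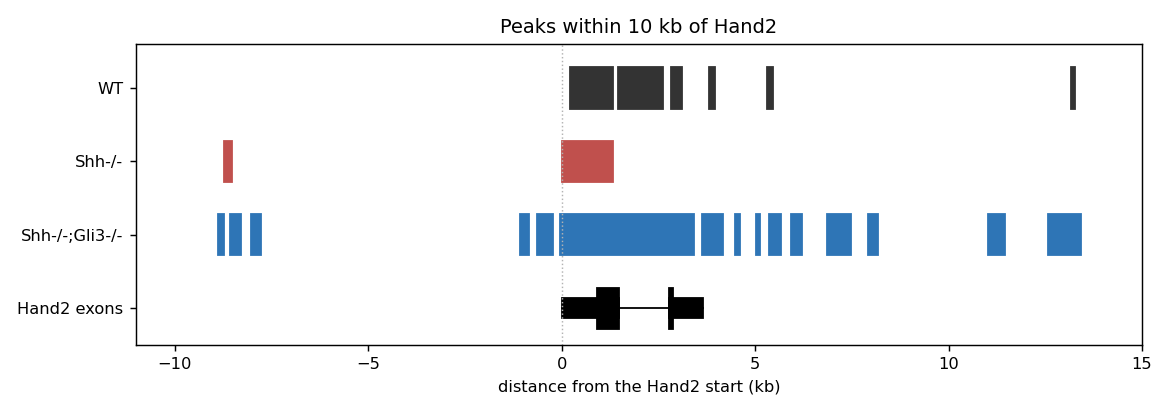
Peaks of each list within 10 kb of Hand2, by distance from the Hand2 start in kb, above the 2 exons of Hand2 (tall parts are coding). The WT list has 6 peaks, the Shh-/- list 2 and the Shh-/-;Gli3-/- list 15, of which the widest spans 3450 bp.

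Within 10 kb of Hand2, the 6 WT peaks covered 2.95 kb. The 2 Shh-/- peaks covered 1.5 kb, and the 15 Shh-/-;Gli3-/- peaks covered 8.35 kb. The Shh-/- cover was 0.508 times that of WT and the Shh-/-;Gli3-/- cover 2.83 times. Across 12481 protein-coding genes with a WT peak within 10 kb, the median ratios were 1.14 and 1.27 (quartiles 0.889 to 1.52 and 1 to 1.68). The order Shh-/-;Gli3-/- over WT over Shh-/- seen at Hand2 held at 15.7% of the 14401 genes with a peak in any list. The deficit in Shh-/- lay in the weaker peaks that follow the promoter peak in WT, whose FDR ranged from 0.0106 to 0.168. With peaks of FDR below 0.01, or of log2 fold of at least 3, 1.1 kb was left in WT and 1.3 kb in Shh-/-, and the ratio turned to 1.18.

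Downstream of the promoter peak, WT held 5 peaks of 100 to 1150 bp out to 13.242 kb from the start, and Shh-/- held none. The Shh-/-;Gli3-/- list held 9 there, of 100 to 850 bp, beyond the wide peak. Among them were peaks at 7.242 kb (600 bp, log2 fold 3.11), 11.192 kb (450 bp, 3.21) and 13.292 kb (850 bp, 2.85). The latter 2 lie over exons of the long non-coding RNA genes 5033428I22Rik and Gm34030. Of the 6 WT peaks within 10 kb, 1 was overlapped by a Shh-/- peak, against 63.4% of all WT peaks. All 6 were overlapped by a Shh-/-;Gli3-/- peak, against 70.8% of all. In turn, 4 of the 15 Shh-/-;Gli3-/- peaks overlapped a WT peak, against 43.3% of all in that list. The counts are small and the differences were not tested.

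Upstream, between the start and 10 kb, the WT list held no peak. In Shh-/-;Gli3-/- 2 peaks lay just before the start, at 0.458 kb (400 bp, log2 fold 3.83) and 0.958 kb (250 bp, 3.07). Introns of Hand2os1 held 1 Shh-/- peak 8.66 kb upstream (200 bp, 2.73) and 3 Shh-/-;Gli3-/- peaks from 7.91 to 8.81 kb upstream.

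From 10 to 100 kb the locus held little in WT and Shh-/-. WT had 1 peak of 100 bp, 27.308 kb upstream in an intron of Hand2os1, at an FDR of 0.0998. Shh-/- had 0 peaks, and Shh-/-;Gli3-/- had 6 peaks of 150 to 400 bp that covered 1.7 kb. The strongest pair of these lay 84.092 and 84.892 kb downstream in an intron of Gm34099 (log2 folds 2.94 and 2.66).

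**Figure D2:**
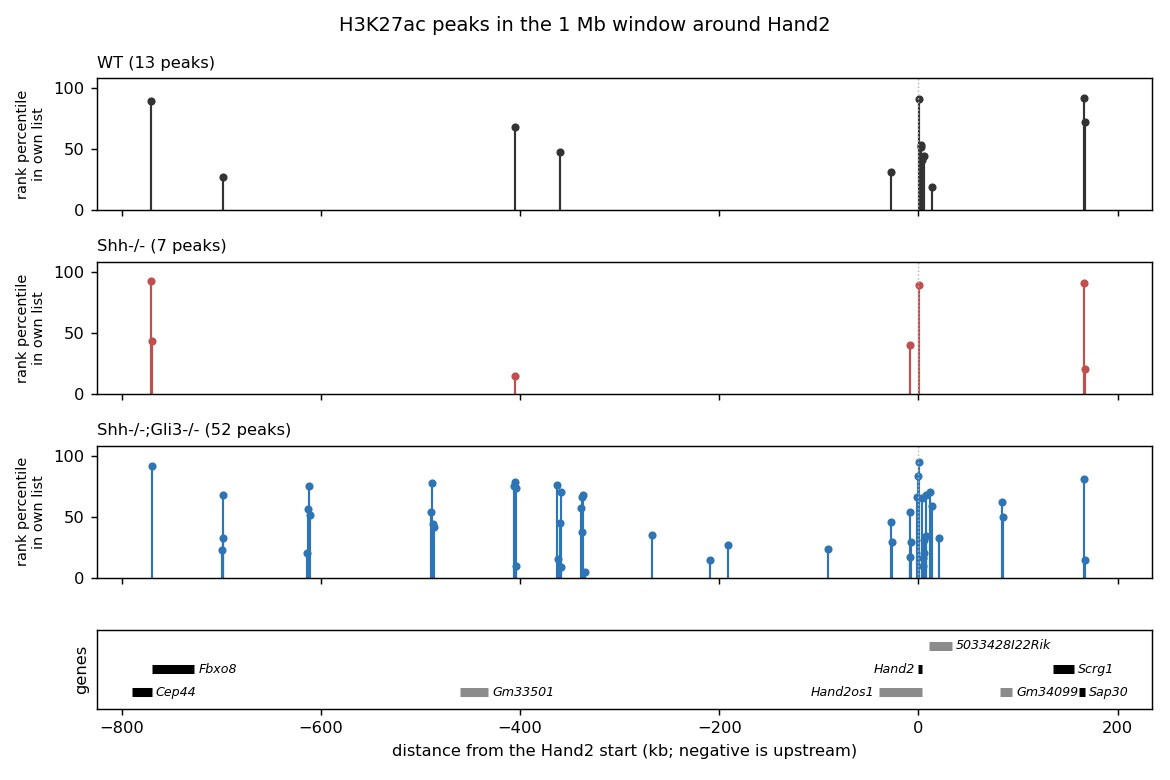
Each peak of the window by distance from the Hand2 start (kb, negative upstream) against the percentile of its rank in its own list (100 is the strongest), with genes below (black protein coding, grey other). The Shh-/-;Gli3-/- peaks form groups between 698 and 337 kb upstream that the other lists hold sparsely.

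The interval of 727 kb between the end of Fbxo8 and the start of Hand2 holds no other protein-coding gene. Beyond 100 kb from Hand2 and away from promoters, every peak lay in this interval: 3 in WT (0.6 kb), 1 in Shh-/- (0.15 kb) and 28 in Shh-/-;Gli3-/- (11.6 kb). The Shh-/-;Gli3-/- cover was 19.3 times that of WT and the Shh-/- cover 0.25 times, but WT and Shh-/- hold so few peaks that these ratios rest on 3 and 1 of them. Over the whole lists, peaks away from promoters number 11665 in WT, 16481 in Shh-/- and 21081 in Shh-/-;Gli3-/-, so both mutant lists hold more of them than WT in general. Of the 28 peaks, 25 fall in 6 clusters joined across gaps of up to 5 kb (a rule set after the data were seen), which cover 11.2 kb. Only clusters with at least 3 Shh-/-;Gli3-/- peaks were kept, so the presence of that list in each was fixed by the rule. The other 3, of 100 to 150 bp, lie alone at 268, 209 and 191 kb.

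The cluster 360 kb upstream (chr8:56958300-56963699) held the most cover, 2.5 kb in 5 Shh-/-;Gli3-/- peaks, the widest 1600 bp. WT had 1 peak there of 200 bp (log2 fold 2.66, FDR 0.0247) and Shh-/- had none. The cluster at 488 kb (chr8:56831500-56834849) covered 2.25 kb in 4 Shh-/-;Gli3-/- peaks, with the widest distal peak of the window, 1700 bp (3.51), and neither other list had a peak in it. The cluster at 405 kb (chr8:56914750-56917499) was the only one held by all 3 lists, though its WT and Shh-/- peaks did not overlap each other. It covered 2.15 kb in Shh-/-;Gli3-/- (4 peaks, highest log2 fold 3.57), 0.3 kb in WT (3.11, FDR 0.00188) and 0.15 kb in Shh-/- (2.43, FDR 0.106).

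The cluster at 612 kb (chr8:56706750-56710799) covered 1.95 kb (highest log2 fold 3.39) and the one at 337 kb (chr8:56982150-56985899) 1.55 kb (3.13), both in Shh-/-;Gli3-/- only. The cluster at 698 kb (chr8:56622100-56623449) covered 0.85 kb in Shh-/-;Gli3-/- and 0.1 kb in WT, at a WT FDR of 0.106. Of these 6 clusters, chosen by their Shh-/-;Gli3-/- peaks, WT had a peak in 3 and Shh-/- in 1. These clusters are intergenic in the annotation. Which gene they act on was not measured.

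**Figure D3:**
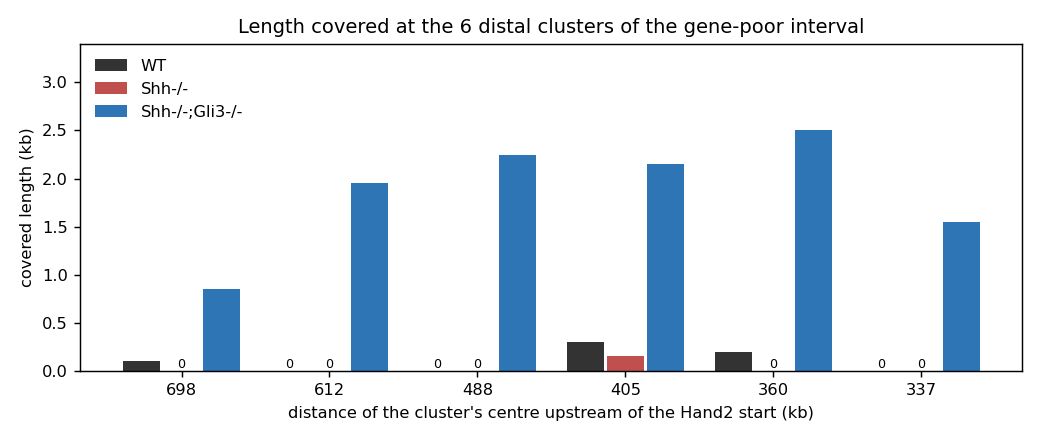
Length covered by peaks (kb) of each list in the 6 distal clusters, by the distance of the cluster's centre upstream of Hand2 (kb). The clusters were chosen by their number of Shh-/-;Gli3-/- peaks. Shh-/-;Gli3-/- covers 0.85 to 2.5 kb in each, WT at most 0.3 kb and Shh-/- at most 0.15 kb, and 0 marks no peak.

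The other promoters of the window differed less from WT in Shh-/-;Gli3-/- than that of Hand2. The shared promoter of Cep44 and Fbxo8, 770 kb upstream, held a widest peak of 1200 bp in WT, 700 bp in Shh-/- (0.583 times) and 1400 bp in Shh-/-;Gli3-/- (1.17 times). The Shh-/- list held 2 peaks there, which covered 0.9 kb against 1.2 kb in WT. At Sap30, which encodes a subunit of a histone deacetylase complex and lies 166 kb downstream, the widths were 1550, 1200 and 1350 bp, or 0.774 and 0.871 times WT. The promoter of Scrg1 held 0 peaks in every list. Peaks at the promoters beyond 100 kb covered 2.95 kb in WT, with 2.4 kb in Shh-/- buds against 2.9 kb in Shh-/-;Gli3-/- buds, 0.814 and 0.983 times the WT cover. Inside the promoter window of Hand2, from 2000 bp before to 1000 bp after the start, peaks covered 0.784, 0.984 and 1.68 kb in that order.

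**Figure D4:**
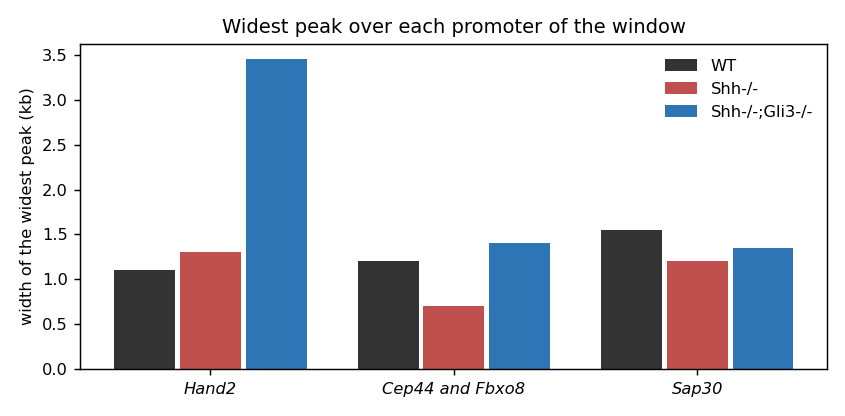
Width in kb of the widest peak over each promoter of the window that held one, by list. At Hand2 the Shh-/-;Gli3-/- peak is 3.14 times the WT width, against 1.17 at Cep44 and Fbxo8 and 0.871 at Sap30. The WT width at Hand2 is that of 1 peak, whereas 3 WT peaks lie inside the Shh-/-;Gli3-/- peak and together cover 73.9% of it.

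Over the whole window, Shh-/-;Gli3-/- held 4 times as many peaks as WT, and Shh-/- held 0.538 times as many. Among 2236 windows of 1 Mb with a WT peak, the medians were 1.31 (quartiles 1 and 2) and 1.2 (1 and 1.6), and 6.98% of windows reached at least 4 times as many Shh-/-;Gli3-/- as WT peaks, a threshold set at the value of the Hand2 window after it was seen. As a share of each list's covered length, the window holds 0.0638% (WT), 0.0313% (Shh-/-) and 0.143% (Shh-/-;Gli3-/-). With the lists trimmed to equal covered length, the ratio of Shh-/-;Gli3-/- to WT was 1.31 at the gene, and 7.75 for the distal peaks away from promoters (4.65 against 0.6 kb).

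**Figure D5:**
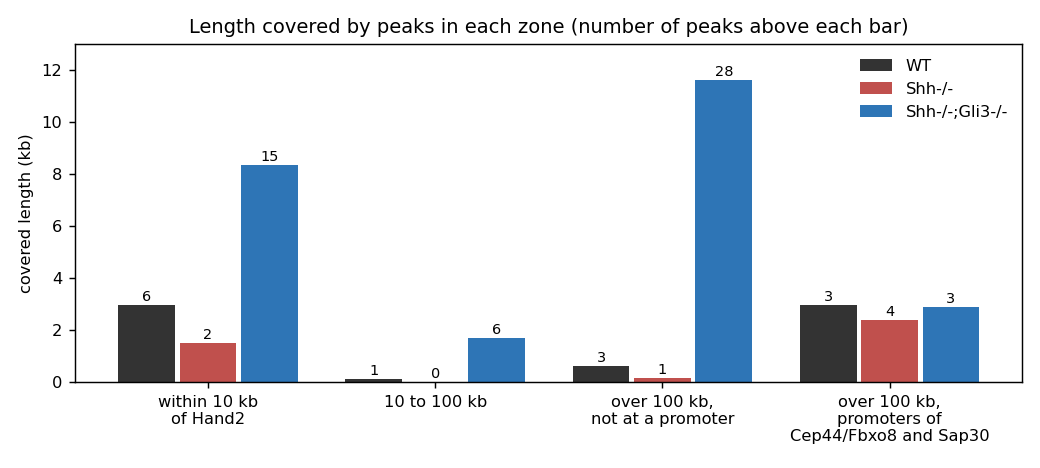
Length covered by peaks (kb, bars) and number of peaks (above each bar) by list and by distance from Hand2, with peaks over 100 kb away split by whether they lie at a promoter. Shh-/-;Gli3-/- exceeds WT in every zone except the promoters of other genes, where it covers 2.9 against 2.95 kb.

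Peak by peak, 4 of 13 WT peaks (30.8%, exact 95% interval 9.09 to 61.4) were overlapped in Shh-/-, where 63.4% of all WT peaks were. In Shh-/-;Gli3-/- 11 of 13 (84.6%, 54.6 to 98.1) were, against 70.8% of all. This share depended on the rule: it was 46.2% (6 of 13, against 45.1% of all) with the lists trimmed to equal covered length, and 23.1% (3 of 13, against 37.5% of all) where each peak of a pair had to be covered to 50% by the other. With the full lists and overlap of at least 1 bp, the 2 WT peaks left out were the 100 bp peaks at 27.308 and 697.908 kb upstream, 150 and 50 bp from the nearest Shh-/-;Gli3-/- peak. In the other direction, 9 of 52 Shh-/-;Gli3-/- peaks (17.3%, 8.23 to 30.3) overlapped a WT peak, against 43.3% of all, and 6 of 52 (11.5%, 4.35 to 23.4) a Shh-/- peak, against 49.4%. Of the 7 Shh-/- peaks, 5 overlapped a WT peak (71.4%, against 48.4% of all) and all 7 a Shh-/-;Gli3-/- peak (against 61.2%). The intervals cover counting error over peaks only. The shares over all peaks are not matched for promoters, where overlap is more common: 11368 of 13427 WT promoter peaks overlap a Shh-/- peak. Away from promoters lie 9 of 13 WT members against 11665 of 25092 WT peaks, and 46 of 52 Shh-/-;Gli3-/- members against 21081 of 34635. All 4 WT members overlapped in Shh-/- lie at promoters, so the gaps to the shares of all peaks partly reflect this mix. Joined across gaps of up to 500 bp, the 72 peaks formed 25 regions. Of these, 4 were in all lists, 4 in WT and Shh-/-;Gli3-/-, 1 in Shh-/- and Shh-/-;Gli3-/-, and 16 in Shh-/-;Gli3-/- alone. Regions were not counted in this way over the whole lists. The Shh-/-;Gli3-/- list is the largest, so regions of that list alone occur outside this window too, and the 16 have no background to be set against. The regions in all lists include that at 405 kb, where the WT and Shh-/- peaks do not overlap.

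Pooled over all zones, Shh-/-;Gli3-/- members away from promoters were richer in A and T than such peaks of their list as a whole. Over 300 bases around the largest statistic, the 46 Shh-/-;Gli3-/- members that are not at a promoter had a median GC content of 39.1% (22.7 to 64.3), against 46.7% for all 21081 such peaks of that list. Their GC content differed by zone, from 41% to 58.7% within 10 kb of Hand2 and from 22.7% to 55.3% in the 28 beyond 100 kb. The 9 WT members of this kind had a median of 50.3%, against 50.7%. The zones hold different shares of each list's members, so these medians do not compare the genotypes. The GLI motif GACCACCCA, searched on both strands, occurred exactly in the windows of 0 of 13 WT, 0 of 7 Shh-/- and 1 of 52 Shh-/-;Gli3-/- members, against 0.303%, 0.24% and 0.225% of all windows. The match, at chr8:56983264-56983272, lies in the window but past the edge of its peak (chr8:56982900-56983249). Matches with up to 1 letter different, a search added after the data were seen, occurred in 4 of 52 (7.69%) Shh-/-;Gli3-/- windows, against 6.48% of all. In the Hand2 promoter, CCAAT and GGGCGG occurred 2 times each, and TATAAA and the GLI motif 0 times. Of 32851 RefSeq promoters, searched over the same 250 bases before the start, 33.8%, 32.7%, 12.4% and 0.225% hold these in that order.

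A list of 22 genes was drawn from general knowledge. Their products partner with, act on or respond to HAND2, SHH or GLI3 in the limb bud. Of these genes, 20 held a peak within 10 kb in at least 1 list. The order Shh-/-;Gli3-/- over WT over Shh-/- held at 6 of the 20, against 15.7% of all genes with a peak. The 6 are not independent, since 4 of them are neighbouring Hoxd genes. They were Ptch1, the SHH receptor (5.4 kb in WT, 1.75 in Shh-/-, 8.35 in Shh-/-;Gli3-/-), Tbx3, a T-box factor of the limb margins (3, 2.65 and 4.5 kb), and Hoxd10, Hoxd11, Hoxd12 and Hoxd13. The 10 kb flanks of each of these Hoxd genes overlap those of its neighbours. At Hoxd13 the cover was 0.25, 0 and 2.6 kb. The median ratios to WT over the 18 list genes with a WT peak were 1.12 in Shh-/- and 1.67 in Shh-/-;Gli3-/-, against 1.14 and 1.27 over all genes with a WT peak. Over the 20 genes, Shh-/- cover was above that of WT at 12 and below it at 7. Alx4, an anterior homeobox gene, held more cover in Shh-/- than in the other lists, with 1.45, 5.25 and 0.85 kb. The anterior and proximal gene Irx3 did too, with 2.35, 4.15 and 2 kb. Those above WT also include Tbx2 (0.1, 0.95 and 0.45 kb), Bmp4 (1.95, 3.4 and 3.35 kb) and Twist1 (6.1, 10.4 and 10.9 kb). At Gli1, a direct target of the pathway, WT had 1.5 kb and both mutants 0. The study reports strongly lowered H3K27ac in Shh-/-;Gli3-/- buds at GLI3-bound regions of both Gli1 and Ptch1. Its measure is enrichment at single regions, while covered length sums all peaks over a gene and its flanks, so the 8.35 kb at Ptch1 does not address that result. Shh and Grem1 held 0 peaks in this flank in every list.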

How the data were processed

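H3K27ac MicroChIP-seq was done by the authors on E10.5 forelimb buds, with 2 libraries and 1 input per genotype, amplified with 12 PCR cycles per the labels. Groups were read from the sample titles, because the labels' genotype field gives wild type for all 9 samples. The submitters' processing notes name Bowtie2 2.2.5 and mm10, and the authors called peaks with CisGenome 2.1.0. Each list is filed under replicate 1 of its genotype, and the labels do not say whether replicates were pooled. The study describes its peak tables for these genotypes as called from both replicates at an FDR below 0.05, whereas these lists extend beyond that FDR. Its methods state a minimum depth for all libraries; the depth of each library was not used here.

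The deposited lists give, per peak, the position in steps of 50 bp, the false discovery rate (a q-value), the peak caller's score that orders the list, the largest log2 fold over input, and the Poisson p-value as −log10. The lists hold no replicate values. They do not say whether positions count from 0 or 1, and sequences were read as counted from 1.

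Members were found by position and compared by overlap of at least 1 bp in Python 3.11.15 (numpy 2.4.6, pandas 2.3.3, scipy 1.17.1). Promoters reach 2000 bp before and 1000 bp after protein-coding transcript starts of GENCODE M21. All peaks on chromosome 8 lay within its length in GRCm38 (129401213 bp). Exact binomial intervals are at 95%. No p-value was computed. Overlap, coverage and merging were tested on simulated data. The members, zones, gene lists and alternatives were chosen with earlier results of these data known. The text names every peak within 10 kb of Hand2 by rule or by range and count, and elsewhere the regions held by all lists, the strongest of each other class, the widest peaks and the promoters of the window. Several thresholds were set after seeing values, as stated beside them.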

Additional observations from a re-analysis of the deposited data

How the results depend on the processing

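At the gene, the Shh-/- to WT ratio of covered length stayed below 1 under 8 of 10 alternatives and turned to 1.18 with FDR below 0.01 and to 1.18 with log2 fold of at least 3, which leave the promoter peak alone in both lists. The Shh-/-;Gli3-/- to WT ratio at the gene stayed above 1 under all 10, at 6.23 with FDR below 0.01, 5.18 with log2 fold of at least 3, 1.31 with equal covered length and 1.71 as a share of the list's covered length. Beyond 100 kb, the Shh-/- ratio was 0.718 and stayed below 1 under all 9 alternatives (0.25 without promoter peaks of other genes, an alternative chosen after seeing the data). Promoters of other genes make up 2.95 of the 3.55 kb in WT and 2.4 of the 2.55 kb in Shh-/-. The steadiness of this ratio is therefore mainly that of those promoters, and not of the interval upstream of Hand2. The Shh-/-;Gli3-/- ratio stayed above 1 under all 9, at 2.08 with equal covered length, 2.47 as a share of the list's covered length and 19.3 without those promoter peaks. Of the window's WT peaks, the part overlapped in Shh-/- was 75% (3 of 4) with a width of at least 500 bp and lay between 23.1% and 60% otherwise. The part overlapped in Shh-/-;Gli3-/- was 46.2% with equal covered length, 23.1% with 50% of both peaks covered, and 100% with a width of at least 500 bp, with merging across 1 kb, and where gaps of 500 bp were allowed. No paired analysis was possible because the 3 lists carry no replicate values, and for the same reason no replicate could be left out. Library depth was not used here, so peaks missing from a list cannot be told apart from peaks below its detection.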
